A study of Mus musculus with 9 samples.

Results

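Pla1a, Tmem45a, Lmcd1, Arsi, Ccdc125, Eef1a2 and Armh4 are 7 mouse genes of unrelated function that stood higher in cultured synovial fibroblasts from crystal-injected paws than in those from naive paws. They were 7 of 47729 genes in the deposited table, and all of them had a mean level high enough to be tested. They were chosen by their measured difference from naive cultures, so that difference is a description below and supports nothing. The comparison of primed with non-primed cultures was not the one they were chosen on and was tested, although it uses the same injected-paw libraries.

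The cultures came from paws of wild-type BALB/c mice that were digested with collagenase, and the labels give the cell type as synovial fibroblasts. Primed cultures came from left paws injected with monosodium urate (MSU) crystals, the crystals of gout, on day 0 and again on day 9. Non-primed cultures came from right paws injected with MSU crystals on day 9 alone, and naive cultures came from paws with no injection. RNA was taken at day 18, the fibroblasts had been grown for 5 passages, and each group had 3 libraries. Paw side and priming cannot be told apart, since every primed paw was a left paw and every non-primed paw a right paw. Nothing in the labels says that the 3 libraries of a group came from separate mice, and p-values then rest on variation among cultures that may be technical. The labels name neither the age of the mice nor a vehicle injection.

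Synovial fibroblasts line the joint, make its matrix and lubricant, and take part in joint inflammation by secreting enzymes and cytokines. The 7 genes work in different places. Pla1a encodes a secreted phospholipase that cuts phosphatidylserine into lysophosphatidylserine, a signalling lipid, and Arsi encodes a member of the sulfatase family, enzymes that remove sulfate groups. Tmem45a and Armh4 encode membrane proteins, Lmcd1 and Ccdc125 encode proteins with LIM and coiled-coil domains, and Eef1a2 encodes an isoform of the factor that brings aminoacyl-tRNA to the ribosome. When oxygen is low, the protein HIF1A is stabilised and binds short DNA motifs near genes of glucose use, acid export and oxygen sensing, which provides a reference programme for the genes below.

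The promoters of Tmem45a, Lmcd1 and Armh4 are shown because they hold the core motif bound by HIF1A, which 43.8% of all promoters hold. In pattern, Hif1a was the nearest gene to Tmem45a and Ndrg1, a gene of that response, the nearest to Lmcd1. Bnip3, also of that response, was among the 3 nearest to Armh4. Such neighbours were not limited to genes with the motif. Slc16a3, another gene of that response, was among the 3 nearest to Ccdc125 and to Eef1a2, whose promoters lack the core. Hif1a was among the 3 nearest to Arsi, for which no promoter was matched. Control of any of the 7 genes by HIF1A was not tested. Each run covers 250 bases before to 50 bases after the RefSeq start site, in the GRCm38.p6 build and in the gene's own direction. Capitals mark ACGTG or GCGTG on either strand, and in Lmcd1 also TGACGTCA, the motif of the cyclic AMP response element. The Tmem45a run is chr16:56886114-56886413 on the minus strand, the Lmcd1 run is chr6:112273508-112273807 on the plus strand, and the Armh4 run is chr14:49783334-49783633 on the minus strand.
Tmem45a: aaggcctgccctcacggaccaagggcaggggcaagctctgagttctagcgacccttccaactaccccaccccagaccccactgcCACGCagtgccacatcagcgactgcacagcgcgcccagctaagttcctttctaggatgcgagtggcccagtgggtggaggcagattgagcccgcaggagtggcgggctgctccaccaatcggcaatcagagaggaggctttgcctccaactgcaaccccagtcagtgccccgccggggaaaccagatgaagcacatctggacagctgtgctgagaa
Lmcd1: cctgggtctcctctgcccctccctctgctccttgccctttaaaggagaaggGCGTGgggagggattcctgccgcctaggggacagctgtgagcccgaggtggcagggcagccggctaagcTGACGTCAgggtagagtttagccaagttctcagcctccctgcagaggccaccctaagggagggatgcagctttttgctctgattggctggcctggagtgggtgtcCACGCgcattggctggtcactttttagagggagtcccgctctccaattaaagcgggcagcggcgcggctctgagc
Armh4: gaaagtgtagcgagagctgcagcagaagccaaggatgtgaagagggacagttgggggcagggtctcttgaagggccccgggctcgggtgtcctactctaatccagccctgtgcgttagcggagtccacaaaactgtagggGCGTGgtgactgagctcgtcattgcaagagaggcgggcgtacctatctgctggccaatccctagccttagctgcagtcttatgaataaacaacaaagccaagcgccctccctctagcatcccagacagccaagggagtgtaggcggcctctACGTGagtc

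RefSeq promoters were matched for 5 of the 7 genes, namely Tmem45a, Lmcd1, Ccdc125, Eef1a2 and Armh4. The ACGTG or GCGTG core occurred in 3 of these 5, against 43.8% of 32851 promoters of the same length. With positions counted from 0 at the start site, Tmem45a had 1 match at -166 to -162, on the other strand. Lmcd1 had a match at -199 to -195 and another, on the other strand, at -25 to -21. Armh4 had a match at -110 to -106 and another at 41 to 45, past the start site. The full TGACGTCA stood at -130 to -123 in Lmcd1 and in no other of the 5, and 1.79% of all promoters hold it. The antioxidant response core TGACNNNGC stood at -104 to -96 in Armh4 and occurs in 12.4% of all promoters. The CCAAT box was found in Tmem45a, Lmcd1, Ccdc125 and Armh4, with 3 matches in Lmcd1, and in 37.4% of all promoters. The GC box GGGCGG was found in Eef1a2 and in 35.7% of all promoters. TATAAA and TGANTCA, the AP-1 motif, were found in none of the 5, against 13.6% and 7.81% of all promoters. Every motif was searched on both strands, and TGACGTCA contains the letters ACGT but not the 5-letter core. A match of letters is a description of the window and not a binding site.

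**Figure D1:**
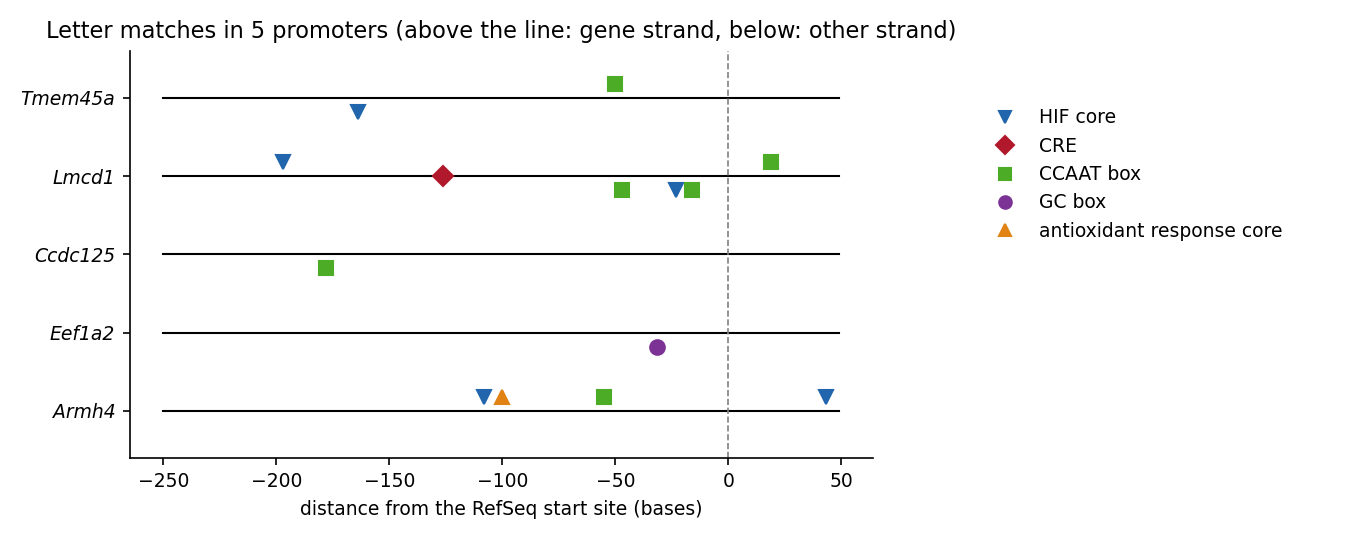
Matches of short motifs in the promoters of Tmem45a, Lmcd1, Ccdc125, Eef1a2 and Armh4, plotted by distance from the RefSeq start site in bases (horizontal axis), with symbols above a line for the gene's strand, below it for the other strand and on it for both. The HIF core lies in Tmem45a, Lmcd1 and Armh4, and Ccdc125 and Eef1a2 hold no such match in these 300 bases.

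Values are regularised log values (rlog), which are on a log2 scale, are scaled for library depth and are drawn towards a gene's mean where reads are few. They hold no gene length, so levels are compared between libraries and not between genes. The depth of the libraries is unknown. A difference in these bulk samples cannot tell a change in the number of cells of a type from a change in RNA per cell. The defining markers of fibroblasts were high throughout: the mean rlog over 10 such genes was 13.54 to 14.08 in primed, 13.90 to 14.01 in non-primed and 13.48 to 14.06 in naive libraries. The 8 epithelial markers lay between -0.37 and -0.26 on average, which is at the bottom of the scale. The naive libraries stood apart from each other: the median gene had a standard deviation of 0.14 in primed, 0.10 in non-primed and 0.22 in naive libraries. Among the means of the marker lists, that of the macrophage markers had the widest naive range, 7.45 to 9.99, as given with the results it touches.

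Pla1a, the phospholipase that makes lysophosphatidylserine, was the member with the widest separation of primed from naive cultures. Its rlog was 9.86, 10.06 and 9.95 in primed libraries 1 to 3, 9.54, 9.55 and 9.59 in non-primed libraries, and 8.64, 8.39 and 8.00 in naive libraries. The 3 groups did not overlap, and their order was primed, then non-primed, then naive. The mean was 1.61 (SE 0.15) higher in primed than in naive cultures, a 3.06-fold difference on this scale, and 1.22 (SE 0.15) higher in non-primed than in naive cultures, a 2.32-fold difference. The non-primed libraries had an SD of 0.02 (n = 3) and the naive libraries one of 0.32, with naive library 3 the lowest. Without naive library 3 the differences were 1.44 for primed and 1.04 for non-primed cultures.

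Eef1a2, the elongation factor isoform known from skeletal muscle, heart and neurons, ranked next. Its rlog was 5.33, 5.73 and 5.84 in primed, 5.40, 5.42 and 5.30 in non-primed, and 4.39, 4.34 and 3.91 in naive libraries. All 6 libraries from injected paws lay above all 3 naive libraries, and primed library 1 fell among the non-primed ones. The difference from naive cultures was 1.42 (SE 0.19) in primed and 1.16 (SE 0.19) in non-primed cultures. Naive library 3 was again the lowest, and without it the differences were 1.27 in primed and 1.01 in non-primed cultures.

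Ccdc125, a coiled-coil protein that in human cells was described as a brake on cell migration, had rlog values of 5.96, 6.23 and 6.08 in primed, 6.20, 5.95 and 6.25 in non-primed, and 5.12, 5.08 and 5.00 in naive libraries. The injected groups overlapped each other fully, and both lay above naive. The naive libraries were close to each other, with an SD of 0.06 (n = 3). The mean was 1.02 (SE 0.14) higher in primed and 1.07 (SE 0.14) higher in non-primed than in naive cultures, about 2.03-fold and 2.09-fold.

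Arsi, arylsulfatase I, had rlog values of 10.74, 11.09 and 11.18 in primed, 11.17, 10.96 and 11.11 in non-primed, and 10.01, 10.27 and 10.23 in naive libraries. Primed library 1 was the lowest of the 6 libraries from injected paws and still lay 0.47 above the highest naive library. The means differed from naive by 0.84 (SE 0.13) in primed and 0.91 (SE 0.13) in non-primed cultures.

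Tmem45a, a membrane protein best known from keratinising skin and, in human tumour cell lines, from growth in low oxygen, had rlog values of 11.58, 11.59 and 11.69 in primed, 11.67, 11.69 and 11.82 in non-primed, and 10.84, 10.98 and 10.73 in naive libraries. It was the gene with the smallest difference between primed and naive cultures among the 7, at 0.77 (SE 0.09), and in non-primed cultures the difference was 0.87 (SE 0.09). The primed and non-primed libraries overlapped between 11.67 and 11.69.

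Lmcd1, a LIM protein that binds GATA6 and restrains its activity and that in the mouse heart promotes calcineurin signalling, had rlog values of 11.18, 11.20 and 11.34 in primed, 11.12, 11.08 and 11.11 in non-primed, and 10.32, 10.33 and 10.55 in naive libraries. Unlike the other genes it had its highest naive value in naive library 3. The difference from naive was 0.84 (SE 0.08) in primed and 0.70 (SE 0.08) in non-primed cultures.

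Armh4, a membrane protein described as a restraint on mTOR complex 2, had rlog values of 12.29, 12.35 and 12.50 in primed, 12.30, 12.07 and 12.40 in non-primed, and 11.52, 11.67 and 11.43 in naive libraries. The lowest library from an injected paw, non-primed library 2, lay 0.40 above the highest naive one, the narrowest gap among the 7 genes. The difference from naive was 0.84 (SE 0.11) in primed and 0.72 (SE 0.11) in non-primed cultures.

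**Figure D2:**
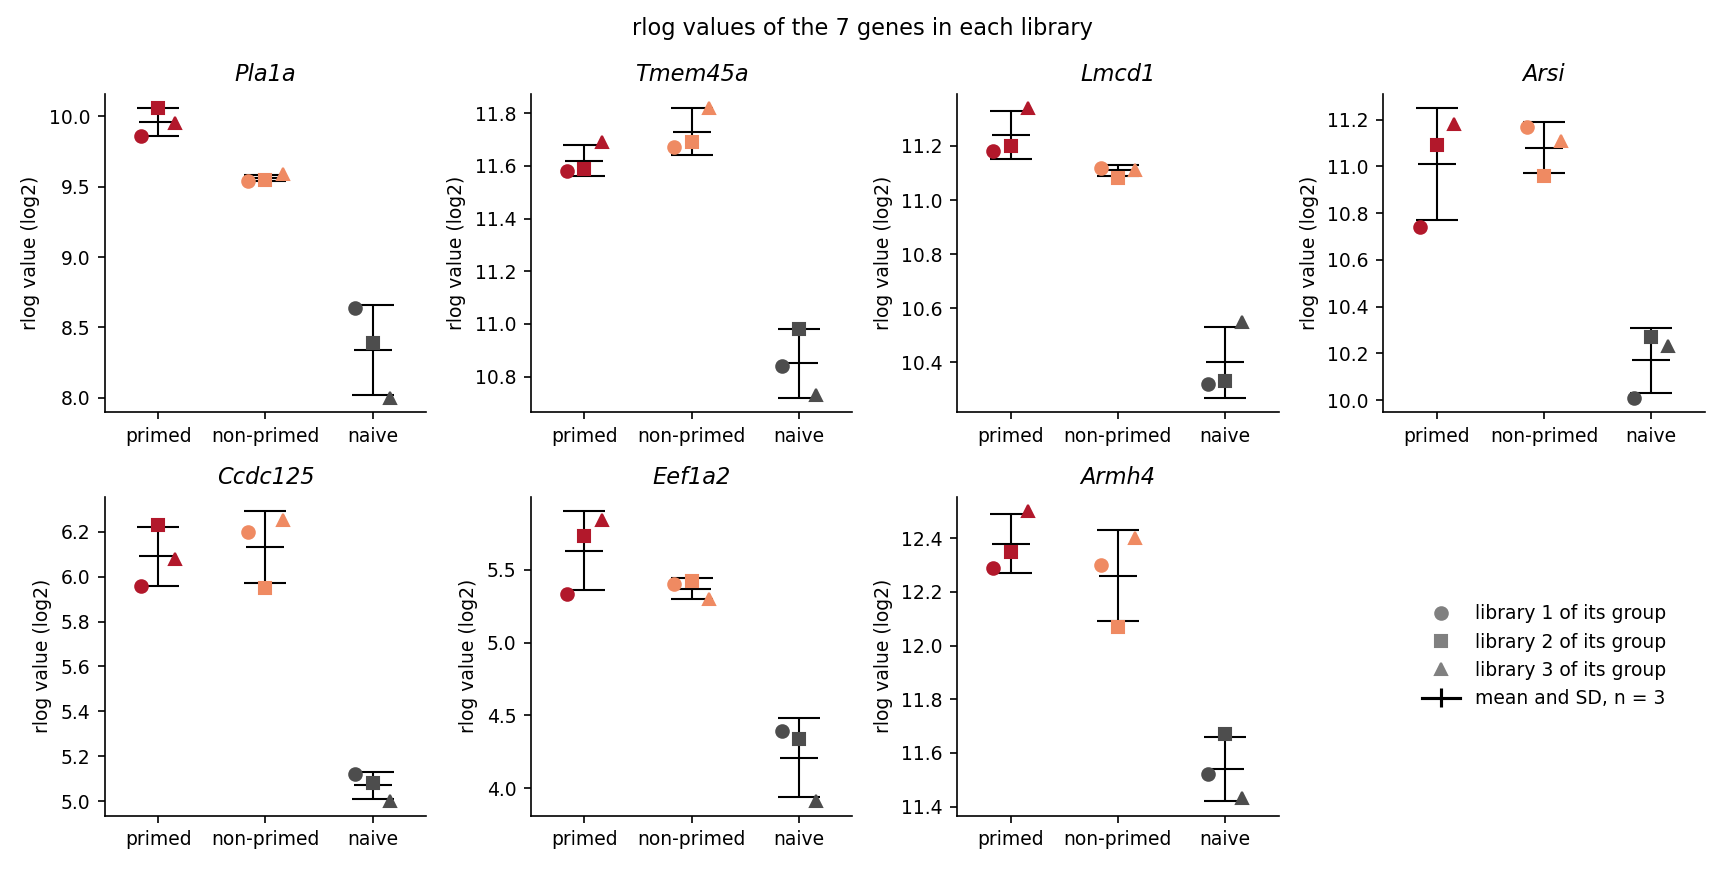
rlog values (log2, vertical axes, each panel with its own range that does not start at 0) of the 7 genes in each library, with marker shapes for library numbers 1 to 3 and bars for the mean and SD of 3 libraries. In every panel the 6 libraries from injected paws lie above the 3 naive ones, by 0.40 for Armh4 and by up to 0.91 for Pla1a and Eef1a2.

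All 7 genes had all 6 libraries from injected paws above all 3 naive libraries, as did 6.13% of the 15623 genes tested. For primed against naive alone the background share was 8.97%, and for non-primed against naive 11.6%. With limma and Benjamini-Hochberg adjustment over all genes tested, 5 of the 7 passed an adjusted p of 0.05 in the higher direction in primed against naive cultures (Pla1a, Tmem45a, Lmcd1, Eef1a2 and Armh4), where 0.096% of all genes did. In non-primed against naive cultures 5 of the 7 passed (Pla1a, Tmem45a, Lmcd1, Arsi and Ccdc125), where 0.115% of all genes did. These shares stand beside the counts for scale, because the genes were chosen on these differences. The genes nearest the threshold in non-primed cultures were Arsi, just inside with a difference of 0.91, and Armh4 and Eef1a2, just outside with 0.72 and 1.16. The calls depended on single libraries and on the model: leaving out any 1 non-primed library or primed library 2 or 3 left 0 of the 7 genes past the threshold in both comparisons, and leaving out naive library 2 or 3 put all 7 past it in both. When low genes were kept in, or the 2 groups compared were fitted alone, 0 of the 7 passed in either comparison, and without the variance trend 2 passed in non-primed and 0 in primed against naive cultures. The differences from naive themselves stayed above 0 in every one of these fits.

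Primed and non-primed cultures were compared to see whether a first injection 9 days earlier went with a further difference in these genes. Paw side differed as well, left against right, so a difference here cannot be assigned to the first injection rather than to side. The genes were not chosen on this comparison, but it shares the injected-paw libraries and the estimate of the spread with those they were chosen on, so it is not fully independent, and the shares of all genes below are given for scale. By limma, 0 of the 7 genes passed the adjusted threshold, and 0 of 15623 genes did (0%). At an unadjusted p of 0.05, 1 of the 7 passed, Pla1a, against 1.26% of all genes. Pla1a was 0.40 higher in primed cultures (SE 0.15, 95% interval 0.06 to 0.74, limma adjusted p = 1.00), and it ranked 68 of 15623 genes by p. The SE of Pla1a takes in the naive libraries, where its SD was 0.32, against 0.10 in primed and 0.02 in non-primed libraries. Without naive library 3 this SE was 0.09, and 0 genes passed the adjusted threshold. Pla1a and Lmcd1 had all primed libraries above all non-primed ones, 2 of 7 genes, where 6.31% of all genes did. For 0 of the 7 they lay below, where 5.25% of all genes did. With 3 libraries a side, the smallest two-sided p of an exact permutation test is 0.1.

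Lmcd1 was 0.14 higher in primed cultures (SE 0.08, 95% interval -0.06 to 0.33), and Eef1a2 was 0.26 higher with a wider interval of -0.17 to 0.69. The interval for Armh4 was -0.12 to 0.37 around a difference of 0.12. Tmem45a had a difference of -0.11 (95% interval -0.30 to 0.09), Arsi one of -0.07 (-0.36 to 0.22) and Ccdc125 one of -0.05 (-0.37 to 0.28). These intervals take in the spread of the naive libraries too, and leave room for differences of either sign in the 6 genes other than Pla1a. A fit that weighted each library by its estimated quality put Pla1a, Lmcd1, Eef1a2 and Armh4 past the threshold (limma adjusted p of 0.018 for Pla1a and Lmcd1, 0.0194 for Eef1a2 and 0.0488 for Armh4), along with 2109 genes in all. It gave non-primed library 1 a weight of 10.41 and primed library 3 one of 7.29, and the other 7 libraries weights between 0.13 and 1.65.

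Deviations from the group means correlated between primed and non-primed libraries of numbers 1 and 2, at 0.418 and 0.608. For number 3 the correlation was 0.1, below the 0.275 of primed library 1 with non-primed library 3. The number-matched differences are given as a description. For Pla1a, primed minus non-primed was 0.32, 0.51 and 0.37 in numbers 1, 2 and 3, and for Lmcd1 it was 0.06, 0.12 and 0.23, above 0 in all 3 pairs. Tmem45a was -0.09, -0.10 and -0.13, below 0 in all 3 pairs and of nearly the same size. Arsi, at -0.43, 0.13 and 0.08, Eef1a2, at -0.07, 0.30 and 0.55, Armh4, at -0.02, 0.28 and 0.11, and Ccdc125, at -0.25, 0.28 and -0.18, each had pairs on both sides of 0. In the paired fit of these 6 libraries Pla1a had an SE of 0.06 and an unadjusted limma p of 0.000878, but its adjusted p was 0.485 and 0 of the 7 genes passed. Without pairing, a fit of these 6 libraries alone gave Pla1a an SE of 0.07 (unadjusted limma p of 0.000651, adjusted p of 0.905). With the replicate block in all 9 libraries its SE was 0.15. The smaller SE thus went with leaving out the naive libraries more than with the pairing. The pairing was read from these same data and was weak for number 3, so the paired fit is no independent support.

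**Figure D3:**
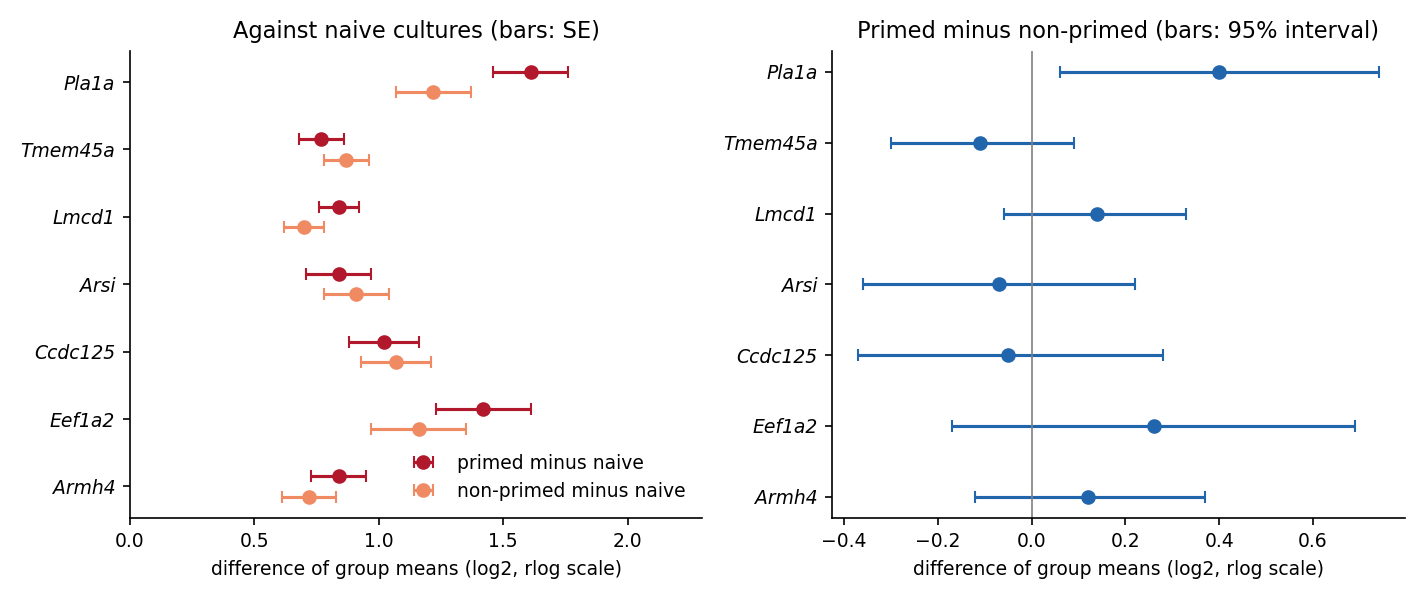
Differences of group means of the 7 genes (horizontal axes, log2 on the rlog scale): left, primed and non-primed minus naive with bars for the SE, and right, primed minus non-primed with bars for the 95% interval from limma. Against naive the differences run from 0.70 for Lmcd1 to 1.61 for Pla1a, and only the Pla1a interval on the right lies wholly above 0, at 0.06 to 0.74.

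The 7 genes differed from each other in pattern. Likeness was measured as the root mean square difference of centred rlog values over the 9 libraries, among 13469 genes, so that a small value means like size and like shape. The closest pair was Tmem45a and Armh4 at 0.116, and the farthest was Pla1a and Arsi at 0.391. Pla1a and Eef1a2 were 0.145 apart, and for Pla1a no other of the 13469 genes was nearer. The points share libraries and the genes were chosen for a common pattern, so these values only describe them.

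The nearest genes included other members of the 7 and genes outside them. Hif1a at 0.075, Bnip3 at 0.078 and Pdk1 at 0.092 were the nearest to Tmem45a. Hif1a encodes HIF1A, the factor that is stabilised as a protein when oxygen is low, Bnip3 a mitophagy receptor, and Pdk1 a kinase that holds pyruvate back from the mitochondria. Hif1a rlog was 14.65, 14.70 and 14.88 in primed, 14.83, 14.87 and 14.98 in non-primed, and 13.93, 14.31 and 13.97 in naive libraries. For Lmcd1 the nearest were Ndrg1 at 0.115 and Adm, the vasodilator peptide adrenomedullin, at 0.124. For Arsi they were Tmem45a and Hif1a, both at 0.137, and for Ccdc125 they were Arsi at 0.147, Tmem45a at 0.152 and Slc16a3, a lactate exporter, at 0.154. For Armh4 they were Tmem45a at 0.116, Tchhl1 at 0.118 and Bnip3 at 0.119.

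Eef1a2 and Pla1a had a different neighbour in Hmox1, the haem oxygenase that degrades haem, at 0.133 from Eef1a2 and 0.172 from Pla1a. Hmox1 rlog was 13.60, 14.14 and 13.91 in primed, 13.43, 13.64 and 13.53 in non-primed, and 12.80, 12.75 and 12.15 in naive libraries. As with Pla1a and Eef1a2, naive library 3 was its lowest and primed cultures had the highest mean, 0.35 (SE 0.19) above non-primed. Asb5 at 0.215 was the next for Pla1a and Slc16a3 at 0.186 the next for Eef1a2.

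The genes of the low-oxygen response were taken as a list because Tmem45a is linked to it in human tumour cells. All 20 of its genes were tested, and 5 of the 20 rose in primed against naive cultures by limma at an adjusted p of 0.05, while 0 fell. They were Car9, a carbonic anhydrase, with a difference of 1.41, Slc16a3 with 1.06, Fam162a with 0.78, Bnip3 with 0.70 and Ndrg1 with 0.66. In non-primed against naive cultures 5 of the 20 rose and 0 fell: Car9 with 1.22, Slc16a3 with 1.03, Bnip3 with 0.76, Pdk1 with 0.70 and Egln1, a sensor of oxygen, with 0.51. The median difference of the list was 0.66 in primed and 0.60 in non-primed cultures against naive, where the median over all genes tested was 0.00 and 0.01. Between primed and non-primed cultures 0 of the 20 passed, and the list's median was 0.06, beside 0.00 over all genes. Earlier results of these data were known when the list was drawn up, so it is not independent of them. Leaving out any 1 non-primed library or primed library 2, adding the mean of muscle markers as a covariate, or dropping the filter on low values left 0 genes past the threshold in either comparison with naive, these included. With the mean of macrophage markers as a covariate 0 genes were past it in the higher direction in either comparison, so these calls were lost there too. Both kinds of marker differed in level between the groups, as given with their values.

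The tested partners and relatives listed for Pla1a, Eef1a2, Lmcd1, Arsi and Armh4 did not pass the adjusted threshold. In the list for Pla1a, 10 of 15 genes of phospholipases, lysophosphatidylserine breakdown and its receptors were tested and 0 passed in any comparison. Abhd12, a lysophosphatidylserine lipase, differed by 0.35 in primed and 0.24 in non-primed cultures against naive, and the receptor genes Gpr34, P2ry10 and Gpr174 were below the filter on low values. Among the translation elongation factors listed for Eef1a2, 0 of 11 passed. Eef1a1, the isoform of most tissues, differed by 0.29 in primed and 0.32 in non-primed cultures with an SE of 0.26. Eef2, which moves the ribosome along the message, differed by 0.26 in both. The median difference from naive was 0.13 in primed and 0.10 in non-primed cultures for the Pla1a list, and 0.13 and 0.14 for the elongation factors.

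The 18 LIM domain genes, the 11 tested genes of calcineurin, NFAT and GATA6, the 13 sulfatase genes and the 11 genes of mTOR complex 2 likewise had 0 past the threshold in any comparison. Gata6, the partner of Lmcd1, differed by -0.69 in both injected groups, with an SE of 0.54. Rcan2, a calcineurin regulator, differed by 0.71 in both. Nfatc1 differed by -0.51 in primed and -0.50 in non-primed cultures, and Nfatc2 by 0.50 and 0.66. Arsj, a close relative of Arsi, differed by -0.04 in primed and -0.10 in non-primed cultures with an SE of 0.18. Ids, a lysosomal sulfatase, differed by -0.68 in primed and -0.79 in non-primed cultures. Sgk1, a kinase that mTOR complex 2 activates, differed by 0.46 and 0.44. The medians of these 4 lists lay between -0.13 and 0.12 in both comparisons with naive. Tmem45b, the relative of Tmem45a, had a mean rlog of -0.08 and was below the filter.

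**Figure D4:**
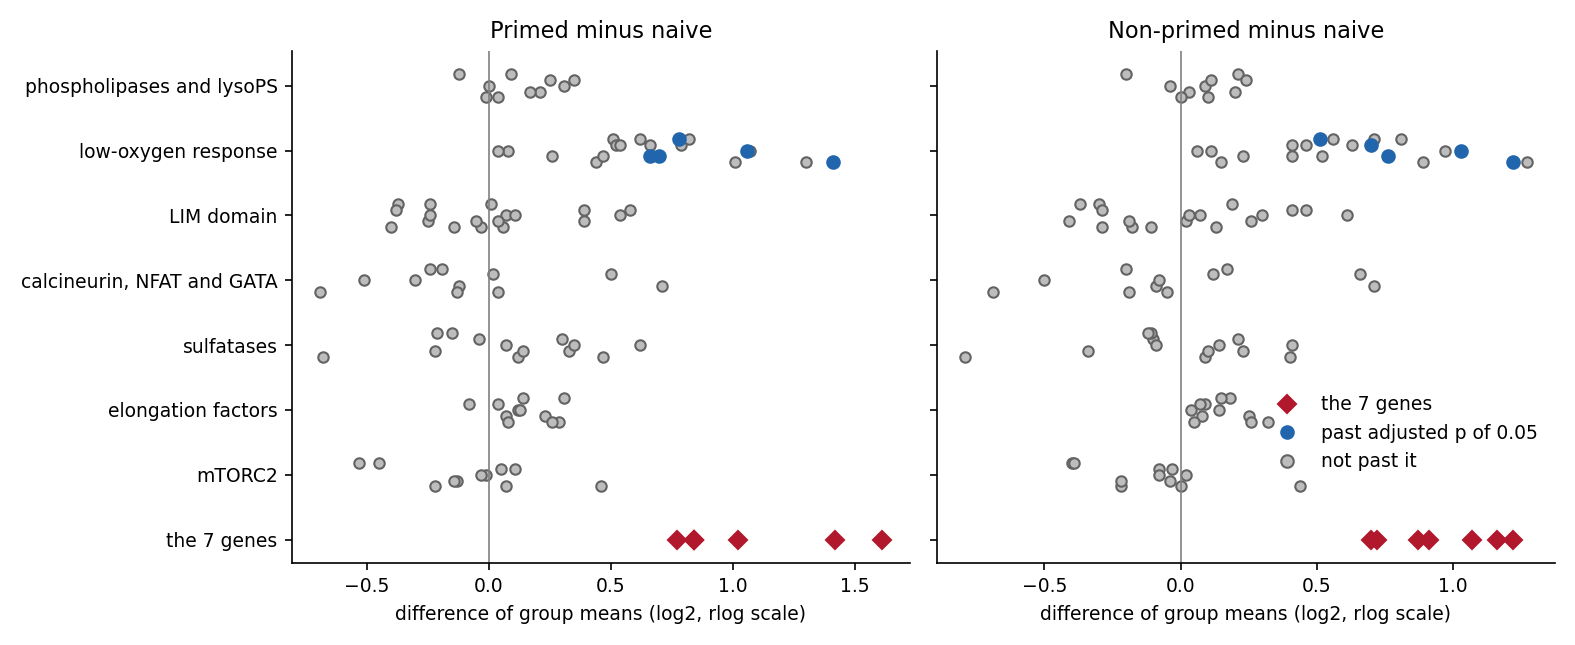
Differences from naive cultures (horizontal axes, log2 on the rlog scale) for primed (left) and non-primed cultures (right), with 1 circle per tested gene of each list described here and diamonds for the 7 genes. Blue circles passed an adjusted p of 0.05 by limma, and all of them, 5 in each panel, are in the low-oxygen list; the diamonds run from 0.77 to 1.61 on the left and from 0.70 to 1.22 on the right.

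Markers of macrophages, skeletal muscle and adipocytes differed in level between the groups or among naive libraries. The mean rlog of 14 macrophage markers, all of them tested, was 9.69 to 10.88 in primed, 9.95 to 10.48 in non-primed and 7.45 to 9.99 in naive libraries. Naive library 2, at 9.99, lay inside the range of the injected paws, while naive libraries 1 and 3 were at 7.80 and 7.45. The markers' summed rlog was 135.7 to 152.4 in primed, 139.4 to 146.8 in non-primed and 104.3 to 139.9 in naive libraries. In naive library 2, Pla1a, Lmcd1, Ccdc125 and Eef1a2 lay between the other naive libraries. Tmem45a, Arsi and Armh4 were highest there among naive libraries, and there they lay at least 0.40 below every library from an injected paw. With the macrophage mean as a covariate, the differences in primed against naive cultures were 1.50 for Pla1a, 0.67 for Tmem45a, 0.97 for Lmcd1, 0.80 for Arsi, 1.00 for Ccdc125, 1.28 for Eef1a2 and 0.78 for Armh4. In non-primed against naive cultures they ran from 0.66 for Armh4 to 1.11 for Pla1a. In that fit 0 of the 7 passed in either comparison.

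The 15 skeletal muscle markers, 9 of them tested, had a mean rlog of 3.34 to 4.41 in primed, 3.59 to 4.20 in non-primed and 3.20 to 3.40 in naive libraries. This bears on Eef1a2, which muscle fibres express. Their summed rlog was 50.1 to 66.2 in primed, 53.8 to 63.0 in non-primed and 48.0 to 51.0 in naive libraries. The list was not uniform: Actn3 had a mean rlog of 7.92 in primed, 7.85 in non-primed and 8.54 in naive cultures, and Ckm, Myod1 and Pax7 were at or below 0.25 in every group. In primed libraries 1 to 3 the marker mean was 3.34, 3.95 and 4.41, and Eef1a2 was 5.33, 5.73 and 5.84, in the same order. In non-primed libraries 1 to 3 the marker mean was 3.59, 4.20 and 4.02, and Eef1a2 was 5.40, 5.42 and 5.30. Primed library 1 was in the naive range for these markers, and Eef1a2 there was above all 3 naive libraries. With the muscle mean as a covariate the Eef1a2 difference was 1.20 in primed and 0.92 in non-primed against naive cultures, and the Arsi difference was 0.67 in primed and 0.74 in non-primed cultures. The nerve and Schwann cell markers were lowest in naive library 3, at 6.03 within a naive range of 6.03 to 7.77, against 7.01 to 7.88 in primed and 7.60 to 8.01 in non-primed libraries. The 8 adipocyte markers, 6 of them tested, had a mean rlog of 4.72 to 5.54 in primed and 4.67 to 4.87 in non-primed libraries, and of 6.40, 6.49 and 4.78 in naive libraries 1 to 3. Their summed rlog was 37.8 to 44.3 in primed, 37.3 to 39.0 in non-primed and 38.2 to 51.9 in naive libraries. The part of any of these cells in the differences was not tested beyond these fits.

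**Figure D5:**
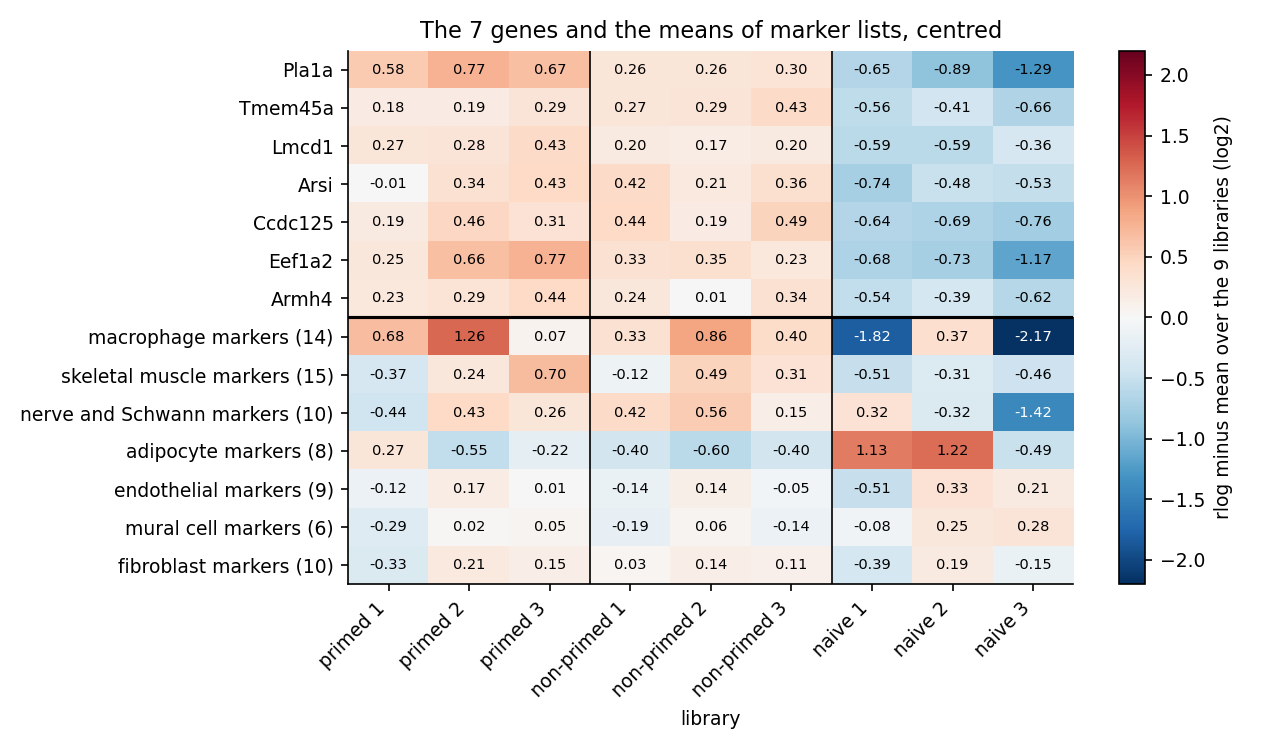
Centred rlog values (rlog minus the mean over the 9 libraries, log2, colour scale) of the 7 genes and of the means of cell type marker lists, with libraries in columns and the number of markers in brackets. All 7 genes are below their mean in each naive library, which is the difference they were chosen on. Before centring, the macrophage mean was 9.99 in naive library 2 and 7.80 and 7.45 in naive libraries 1 and 3.

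The 7 genes lie on 6 chromosomes. In GRCm38 with GENCODE M21 annotation, Pla1a (ENSMUSG00000002847) is at chr16:38396117-38433145 and Tmem45a (ENSMUSG00000022754) at chr16:56805161-56886166, both on the minus strand. Lmcd1 (ENSMUSG00000057604) is at chr6:112273758-112330425, Arsi (ENSMUSG00000036412) at chr18:60911780-60918561 and Ccdc125 (ENSMUSG00000048924) at chr13:100669717-100697240, all on the plus strand. Eef1a2 (ENSMUSG00000016349) is at chr2:181147653-181157014 and Armh4 (ENSMUSG00000036242) at chr14:49675952-49783383, on the minus strand. All are protein-coding genes.

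The genes next to the members did not pass the test. For each member the nearest tested gene on either side was taken, 14 in all, leaving out overlapping genes and those with Gm or Rik names. Of these, 0 passed limma's adjusted threshold in any comparison. Adprh, 10885 bases from Pla1a, differed from naive by 0.15 in primed and 0.13 in non-primed cultures (SE 0.07). Camk2a, 7057 bases from Arsi, differed by 0.30 in both (SE 0.20), and Cdk7, 5391 bases from Ccdc125, by -0.06 in primed and -0.01 in non-primed cultures (SE 0.09). Cav3, a caveolin of muscle next to Lmcd1, had the largest difference of these neighbours, 0.51 in primed and 0.55 in non-primed cultures (SE 0.25).

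Lmcd1 overlaps 2 other genes and Armh4 overlaps 4, with 0 shared exonic bases in either. Gm44193, on the strand of Lmcd1, had a mean rlog of 6.15 in primed, 6.71 in non-primed and 5.48 in naive cultures. Whether the reads were counted by strand is not given in the sources used here. Of the 50-base stretches in their transcripts, 1.02% in Ccdc125 and 1.42% in Armh4 also occur in transcripts of other genes, and 0 do in Pla1a, Tmem45a, Lmcd1, Arsi and Eef1a2.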

How the data were processed

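RNA sequencing was done on 9 libraries of cultured fibroblasts, 3 each from primed, non-primed and naive paws. RNA from a column kit went into a stranded mRNA kit, per the labels' protocols. Per the submitters' processing notes, the tools included DESeq2, cutadapt 2.5, STAR 2.5.4a and featureCounts of Subread 1.6.1, on GRCm38. Annotation release, strandedness of counting and rlog options were not given in the sources used here. Rlog values are what the authors deposited: a table on a log2 scale for 47729 genes, of which 19972 stood at 0 throughout. Symbols were matched for 47224 identifiers. No read counts were used and the libraries' depth is unknown. Precision rests on the spread within groups of 3 libraries, pooled over all 9, and on the variance trend over genes.

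Groups came from the sample titles. Linear models with 1 mean per group were fitted with limma 3.58.1 in R 4.3.3 to all 9 libraries, with 6 residual degrees of freedom and a mean-variance trend. Genes with a mean rlog of at least 3 entered, 15623 in all, and 12134 varying genes were left out. Two-sided p-values received Benjamini-Hochberg adjustment over these genes, with a threshold of 0.05. The fit was tested on simulated data. The correlations of deviations from the group means between primed and non-primed libraries of the same number were 0.418, 0.608 and 0.100, each above 0.1 before rounding, so the numbers were taken to pair these groups. Number 3 was below the mismatched primed library 1 with non-primed library 3, at 0.275, so its pairing is weak. The pairing comes from the data, since the labels do not say that a number marks a mouse, and naive numbers paired with neither group.

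The 7 genes, the 9 pathway lists (113 genes, 106 tested) and the marker lists (80 genes) were chosen with earlier results of these data known; 1 of the pathway lists is not reported here. The text names all 7 genes, the 3 genes nearest to each in centred rlog, and genes of the lists that passed or had the smallest p-values; Gata6, Eef1a1, Arsj, Tmem45b and the lysophosphatidylserine receptors were named for their role, and Hif1a and Hmox1 values were given after they were seen. Neighbouring genes were chosen by position. Alternatives covered the filter on low values, the variance model, scaling, library weights, a replicate block, cell type covariates and leaving out each library; the block fit of the primed and non-primed libraries alone was added after seeing the data.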

Additional observations from a re-analysis of the deposited data

How the results depend on the processing

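The differences of the 7 genes from naive cultures kept their direction under all alternatives run, with ranges from 0.65 to 0.94 for Armh4 and from 1.03 to 1.76 for Pla1a over both comparisons. Between primed and non-primed cultures, the sign turned for Arsi with library weights, at 0.00, and for Arsi and Ccdc125 when single libraries were left out, with ranges of -0.16 to 0.06 for Arsi and -0.14 to 0.02 for Ccdc125; the cause was not tested.

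The counts of genes past the threshold moved far more. In primed against naive cultures 16 genes passed, and the count was 0 with no filter on low values, without the variance trend, with the 2 groups alone and with the skeletal muscle covariate, 1 with the macrophage covariate, 51 with the replicate block and 733 with library weights. In non-primed against naive cultures 22 passed, and the count was 0 with no filter and with the muscle covariate, 1 with the macrophage covariate, 5 without the trend, 13 with a robust prior, 7 with the 2 groups alone and 621 with library weights. Leaving out 1 library gave 0 to 356 genes in primed and 0 to 355 in non-primed against naive cultures, both highest without naive library 2. Between primed and non-primed cultures the count of 0 became 2109 with library weights, 884 higher and 1225 lower, and stayed 0 under the other alternatives. With the replicate block 2 of the 7 genes passed in non-primed and 3 of the 7 in primed against naive cultures, and it changed no other call between primed and non-primed cultures. Depth is unknown, so no limit from read counts can be given, and differences of Ccdc125 and Eef1a2, the genes with the lowest rlog, are the most drawn in by the rlog.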
